A study of Homo sapiens with 12 samples.

Results

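The unperturbed expression programs of LN229 and U251, a pair of established human glioblastoma cell lines, were compared in their control libraries. Members were chosen by title: each line had 2 libraries of cells taken through reverse transfection without siRNA (mock) and 2 of cells given a control siRNA, so 4 libraries of LN229 were set against 4 of U251, 8 of the 12 libraries in the series. The other 4 libraries, in which siRNA targeted the nuclear exoribonuclease XRN2, entered no group mean compared here. They did enter the filter on low counts and the shared estimate of spread (with the 8 control libraries alone 13826 genes were tested and 4260 called), and the direction of the line difference was read in them separately. XRN2 itself stood at 229, 235, 202 and 243 CPM (a gene's counts scaled to the library's size with TMM factors) in the LN229 controls and 138, 143, 144 and 134 CPM in the U251 controls, and at 33.5 and 25.6 CPM and 31.1 and 26.2 CPM in the respective XRN2 siRNA libraries. The 4 control values of a line are given here and below in the order mock 1, mock 2, control siRNA 1, control siRNA 2. RNA was harvested after 72 hours in every group. LN229 had been kept in DMEM with 5% serum and U251 in EMEM with 10% serum, so cell line, medium and serum cannot be told apart in any value below. Both media held penicillin and streptomycin, each side of the comparison is a single line with no passage or clone given, and the labels do not say that replicate libraries came from separate cultures, so the p-values cover no more than the variation among these libraries, which may be technical.

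Glioblastoma cells carry programs of several neural cell types. The transcription factor SOX10 directs neural crest, Schwann cell and oligodendrocyte development, and among its known targets is the neuregulin receptor ERBB3. SOX9, SOX2 and the filament protein GFAP belong to radial glia and astrocytes, while THY1 and the fibril-associated collagen XIV (COL14A1) are typical of fibroblast-like cells. Tumors of this type also differ in receptor tyrosine kinases, in the matrix they deposit and in how they handle glucose and lipids, and the results are ordered in that way.

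Control libraries held 4846768 to 7469052 exon reads on genes, and 16660 to 18064 genes had at least 1 read. The first principal component of the 8 libraries held 88.4% of the variance in log2 CPM and divided the lines. In each line 1 library stood apart from the other 3. LN229 control siRNA replicate 1 lay alone on the second component (3.88% of the variance) and had 5.58% of its gene reads in introns, compared with 8.78% to 9.55% in the other LN229 control libraries. U251 mock replicate 2 lay alone on the third component (3.08%) and was high in genes of the unfolded protein response: HSPA5, the chaperone BiP, was at 1637, 19522, 1529 and 1601 CPM in the U251 libraries. Without both libraries 2441 genes were called higher in LN229 and 2155 higher in U251, and for 38 of the 43 gene lists described here neither count moved by more than 1.5 times; the other 5 are given with both counts.

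Of 14232 genes tested, 2403 (16.9%) were called higher in LN229 and 2085 (14.7%) higher in U251 in the quasi-likelihood test of edgeR, where a call was a Benjamini-Hochberg adjusted p under 0.05 and a difference of at least 2-fold. Adjusted p alone passed for 67.0% of genes, and for 60.0% the 4 libraries of 1 line did not overlap with the 4 of the other. Calls of at least 8-fold were made for 6.45% of genes in the direction of LN229 and 4.14% in that of U251. These shares are the background against which each gene list is read. A gene at or near 0 in 1 line could pass the filter through the other line alone, which nearly settled the direction of its call. Of all tested genes 402 had 0 reads in the controls of a line. List counts and medians that hold such genes are descriptions and no independent support. Mock and control siRNA libraries, which share no library, gave the same direction for 87.3% of all tested genes. The XRN2 siRNA libraries, which did not enter the contrast, had the direction of the controls for 4453 of the 4488 called genes (99.2%) and for 88.4% of all tested genes. The line difference in mock minus that in control siRNA passed for 0 genes in edgeR and 0 in DESeq2, with 565 genes (3.97%) at an unadjusted p under 0.05. Over all tested genes the median log2 difference (LN229 minus U251) was 0.03 and the median absolute log2 difference 0.62; without TMM scaling the former was 0.20 and 62.4% of the calls were higher in LN229, against 53.5% with it, so all directions are relative to that choice. Pairs of values in parentheses are mean CPM in LN229 and U251, in that order. For every gene printed below with its values as higher in a line, each of its 4 libraries was above each of the other line's.

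The 4 marker genes separated the lines, SOX10 and ERBB3 toward LN229 and THY1 and COL14A1 toward U251. SOX10 (chromosome 22, 37970686 to 37987422, GRCh38) stood at 774, 710.5, 759 and 648 CPM in LN229, and U251 held 1 read in all, in control siRNA replicate 1 (0.159 CPM). The ratio was 16868-fold, with a 95% exact counting interval of 3027 to 666287. ERBB3 (chromosome 12, 56079857 to 56103505) stood at 544, 529, 400.4 and 434 CPM in LN229 and at 0.573, 0.484, 0.318 and 0.705 CPM in U251, a log2 difference of 9.79 (SE 0.19, adjusted p = 1.33e-12 in edgeR's quasi-likelihood test). Both genes were thus high in every LN229 library and close to the level of a few reads in every U251 library. THY1 (chromosome 11, 119417378 to 119424985), a GPI-anchored surface glycoprotein, went the other way, with 0.960, 1.02, 1.21 and 1.18 CPM in LN229 and 972, 636, 1029 and 1059 CPM in U251 (log2 difference -9.69, SE 0.20). COL14A1 (chromosome 8, 120059780 to 120372036) stood at 2.08, 2.28, 3.03 and 1.68 CPM in LN229 and 475, 380.1, 469 and 535 CPM in U251 (log2 difference -7.67, SE 0.18). U251 mock replicate 2 had the lowest U251 value of both THY1 and COL14A1 and was still far above the highest LN229 library. In bulk libraries, fewer cells of a kind and less RNA per cell cannot be told apart.

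**Figure D1:**
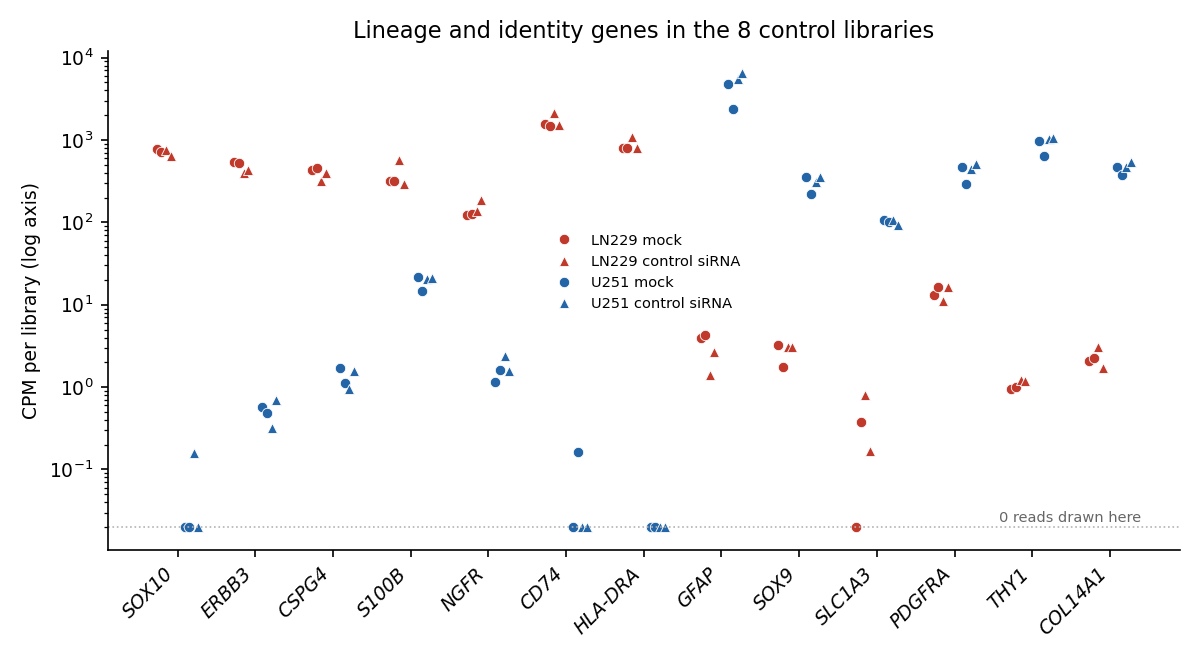
CPM (log axis) of 13 genes in each of the 8 control libraries; red symbols are LN229 and blue symbols U251, circles mock and triangles control siRNA, and libraries with 0 reads are drawn on the dotted line. For each of the genes the 4 libraries of 1 line lie wholly above the 4 of the other; GFAP, for example, was at 2351 CPM or more in U251 and at 4.31 CPM or less in LN229.

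Most genes of the neural crest and Schwann cell program were higher in LN229. Of 19 tested members, 11 were called higher in LN229 and 3 higher in U251, and the median log2 difference was 4.24. CDH19, the cadherin of Schwann cell precursors, was at 122, 111, 88.6 and 100.2 CPM in LN229 with 0 reads in U251, at least 833-fold higher. S100B, a calcium-binding protein of glia, stood at 318, 315, 569 and 294 CPM in LN229 against 21.98, 14.9, 20.4 and 21.3 CPM in U251, and NGFR, the low-affinity neurotrophin receptor, at 123, 127, 136 and 185 CPM in LN229 and 1.147, 1.61, 2.39 and 1.59 CPM in U251. S100B was highest in LN229 control siRNA replicate 1, and the other 3 LN229 libraries were still far above every U251 library. The secreted protein MIA (116 and 1.43 CPM) and the crest factor TFAP2A (37.2 and 1.90 CPM) had the same direction. The transcription factors PAX3 (2.79 and 0.203 CPM) and FOXD3 (2.44 and 0.124 CPM), which specify neural crest, were called higher in LN229 at low levels. The 3 members higher in U251 were ETS1, GAP43 and TFAP2B; ETS1 was at 298, 331, 290.4 and 279.9 CPM there and 122, 135, 92.8 and 135 CPM in LN229. PMP22, a myelin protein, was not called (271 and 323 CPM). CDH19, PAX3 and FOXD3, at or near 0 in U251, could pass the filter through LN229 libraries alone, which nearly settled their direction.

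In the oligodendrocyte lineage list most genes were higher in LN229, but PDGFRA, MBP and MYRF were higher in U251. Of 12 tested members, 8 were called higher in LN229 and 3 higher in U251 (median log2 difference 6.39, or 5.57 with genes that had 0 reads in a line set at their lower bound). CSPG4, the NG2 proteoglycan of oligodendrocyte precursors, stood at 434, 452, 317 and 396 CPM in LN229 and 1.72, 1.13, 0.955 and 1.59 CPM in U251 (log2 difference 8.20, SE 0.24). The transcription factors NKX2-2 (26.2, 18.4, 21.6 and 17.2 CPM) and SOX8 (23.04, 22.6, 28.0 and 14.1 CPM) had 0 reads in the U251 controls, at least 161-fold and 169.8-fold higher in LN229. OLIG2, the lineage's defining basic helix-loop-helix factor, was at only 8.0, 9.52, 9.68 and 6.74 CPM in LN229, against 1 read in U251. ENPP2, the lysophospholipase autotaxin, was at 103 CPM in LN229 and 0.252 CPM in U251, and the myelin glycoprotein MAG at 7.60 CPM against 0 reads. PDGFRA, the receptor that defines oligodendrocyte precursors in brain, was instead higher in U251, with 471, 289.6, 449.6 and 515 CPM against 13.0, 16.6, 11.1 and 16.3 CPM. MBP (1.19 CPM in LN229, 13.7 CPM in U251) and MYRF (8.90 and 33.2 CPM), a structural protein and a regulator of myelin, were also called higher in U251. Precursor genes of the list were therefore not all on 1 side. Members at or near 0 in U251, such as NKX2-2, SOX8, MAG and OLIG2, could pass the filter through LN229 libraries alone. Being tested nearly settled their direction, so the counts and median of the list are descriptions.

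Several defining genes of astrocytes and neural stem cells, among them GFAP, SLC1A3, SOX9 and SOX2, were higher in U251. GFAP stood at 4836, 2351, 5448 and 6428 CPM in U251 and 4.0, 4.31, 1.41 and 2.69 CPM in LN229, a log2 difference of -10.60 (SE 0.35, adjusted p = 1.62e-10 in edgeR). SLC1A3, the glutamate transporter of astrocytes, was at 108, 101, 108 and 93.7 CPM in U251 and 0, 0.381, 0.807 and 0.168 CPM in LN229. The gap junction protein GJA1 (41.2 and 307 CPM) and glutamine synthetase GLUL (75.7 and 237 CPM) had the same direction. As a whole the list of 11 tested members had 5 called higher in U251 and 4 higher in LN229, the latter being APOE, S100B, ALDOC and NDRG2. Its median log2 difference was 0.51, toward LN229, so the astrocyte list as a whole did not lie on the U251 side. ALDH1L1 had 0 reads in both lines and AQP4 a single U251 read. Of 13 tested neural stem cell genes, 6 were called higher in U251 and 2 (SOX11 and NOTCH1) higher in LN229 (median log2 difference -0.18). SOX9 stood at 356, 223, 309 and 351 CPM in U251 and 3.20, 1.78, 3.03 and 3.03 CPM in LN229, and SOX2 at 336, 141, 302 and 333 CPM in U251 and 50.6, 53.2, 58.9 and 55.2 CPM in LN229. Both were lowest in U251 mock replicate 2, which still lay above every LN229 library. PAX6 (0.390 CPM in LN229, 18.1 CPM in U251), POU3F2 (25.6 and 137 CPM), vimentin (VIM, 3371 and 6969 CPM) and CD44 (665 and 1829 CPM) were also called higher in U251. NES, the filament protein nestin, was not called, with 768 ± 24.1 CPM in LN229 and 531 ± 131 CPM in U251 (SD, n = 4 each).

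Of 21 tested fibroblast and pericyte genes, 11 were called higher in LN229 and 4, THY1, COL14A1, COL1A2 and FBLN1, higher in U251 (median log2 difference 1.53). LUM and DCN, small leucine-rich proteoglycans, were at 91.2, 84.5, 89.2 and 80.7 CPM and 14.1, 16.1, 18.6 and 10.8 CPM in LN229 with 0 reads in the U251 controls. ENG, the TGF-beta co-receptor endoglin, was at 109, 107, 116 and 107 CPM in LN229 and 6.88, 5.97, 6.85 and 7.05 CPM in U251. PDGFRB, TWIST1 and ACTA2 were not called. In the list of mesenchymal transition factors and cadherins 6 of 17 tested were higher in LN229 and 4 higher in U251. SNAI1, a repressor of cadherin 1, was at 31.6 CPM in LN229 and 1.97 CPM in U251, whereas the cadherins CDH11 (48.0 and 723 CPM) and CDH4 (0.613 and 289 CPM) were higher in U251. The epithelial cadherin CDH1 had 1 read in LN229 and 2 in U251.

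Lists written to describe glioblastoma subtypes also differed between the lines. Of 18 tested mesenchymal subtype genes, 9 were called higher in U251 and 4 (LIF, TIMP1, IL1R1 and FOSL1) higher in LN229. TGFBI, a secreted adhesion protein, was at 2483, 2370.4, 2496 and 2770.3 CPM in U251 and 338, 364, 378 and 431 CPM in LN229. Of 16 tested proneural and classical genes, 7 were higher in LN229, among them NKX2-2, OLIG2, SOX11 and GLI2 (36.3 and 0.224 CPM), and 3 (EGFR, JAG1 and PDGFRA) higher in U251. Among 20 tested tumor suppressors and oncogenes of glioblastoma, MDM2 (146, 129, 133 and 126 CPM in LN229, 49.7, 44.4, 53.8 and 50.4 CPM in U251), CDK4 (280.2, 304, 417 and 331 CPM in LN229 and 115, 142, 119.7 and 134 CPM in U251) and TERT were called higher in LN229, and QKI, EGFR, MET and PDGFRA higher in U251. MDM2 and CDK4 both lie on chromosome 12. CDKN2A and CDKN2B had 0 reads in all 8 control libraries, which bounds each library's level at 0.381 to 0.605 CPM (3 counts, counting error only). RB1 (87.2 and 114 CPM) and NF1 (45.7 and 57.5 CPM) differed by less than 2-fold. MGMT, the DNA repair gene tied to temozolomide response, had 0 reads in LN229 and 0.956, 0.968, 0.637 and 0.881 CPM in U251 and was below the filter for testing.

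HOX genes, which mark position along the body axis and are silent in the forebrain, were expressed in both lines but not as the same set. Of 32 tested, 16 were called higher in LN229 and 6 higher in U251. HOXA10 stood at 23.5, 26.9, 30.1 and 22.2 CPM in LN229 against 3 reads in U251, and HOXC11 at 11.2, 9.26, 8.27 and 8.42 CPM against 0 reads. The U251 side was held by HOXB3 (83.9, 67.5, 82.5 and 93.2 CPM, against 15.2, 17.3, 11.1 and 14.8 CPM in LN229), HOXB9 and 4 genes of the HOXD cluster, HOXD3, HOXD9, HOXD10 and HOXD11. HOXD10 was at 35.2, 23.1, 42.2 and 38.2 CPM in U251 and 4.16, 6.22, 3.03 and 4.04 CPM in LN229. HOXD13 was the HOXD gene called on the LN229 side (5.23 and 0.747 CPM).

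Lists of other cell types held some markers at or near 0 in both lines and others that were expressed and called. Among neuronal genes 9 of 15 were testable, with 3 called higher in LN229 (SNAP25, GAD1 and TUBB3) and 2 in U251 (ENO2 and NEFL), or 5 and 2 without the libraries that stand apart; SNAP25 was at 24.9 and 1.85 CPM and NEFL at 0.538 and 16.4 CPM, while DCX, STMN2 and ELAVL4 were at 0 in all 8 control libraries. Of 9 melanocyte genes 5 were tested and 3 called higher in LN229: GPNMB (451 and 17.9 CPM), TYRP1 (1.16 and 0.472 CPM, with overlapping libraries and a call lost under 13 of the 20 alternatives) and DCT (3.20 CPM, 0 reads in U251). The pigment enzyme TYR had 0 reads in both lines. Of 17 epithelial genes 7 were tested, with 3 keratins (KRT14, KRT18 and KRT8) called higher in LN229 and CLDN1 and ELF3 higher in U251. Of 12 endothelial genes 6 were tested, with 2, PECAM1 (1.32 CPM, 0 reads in U251) and ESAM, called higher in LN229 and 3, KDR (0.565 and 14.8 CPM), EGFL7 (10.9 and 28.3 CPM) and CDH5 (0.349 and 2.41 CPM), higher in U251. Of 12 blood cell genes 2 passed the filter, CSF1R and CD68, and both were called higher in U251; CD68 was at 53.0 CPM there and 8.27 CPM in LN229, while the leukocyte antigen PTPRC had means of 0.146 and 0.0404 CPM. The part of other cell types in the differences was not tested.

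Genes of MHC class II, which present peptides to helper T cells and are normally active in few non-immune cells, were high in LN229 and nearly at 0 in U251. HLA-DRA (chromosome 6, 32439842 to 32445046) stood at 793, 807, 1073 and 806 CPM in LN229 with 0 reads in the U251 controls, at least 6672-fold higher. CD74, the invariant chain that guides class II molecules, was at 1584, 1471, 2107 and 1505 CPM against 1 read in U251. HLA-DRB1 was at 483, 454, 723 and 471 CPM, HLA-DPA1 at 311, 323, 428 and 332 CPM, and U251 held 0 and 4 reads of them. CIITA, the transactivator on which class II transcription depends, was at 132, 125, 66.8 and 131 CPM in LN229 and 0.956, 1.29, 0.318 and 0.528 CPM in U251. LN229 control siRNA replicate 1 was the highest LN229 library for HLA-DRA, CD74, HLA-DRB1 and HLA-DPA1 and the lowest for CIITA. The peptide loaders HLA-DMA (126 and 1.01 CPM) and HLA-DMB (39.6 and 0.132 CPM) had the same direction. HLA genes are close paralogs and vary between people, so reads may be shared among them.

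Class I genes, which present peptides in nearly all cells, were higher in U251 where they were called. HLA-B stood at 735, 577, 720.2 and 831 CPM in U251 and 149, 143, 243 and 179.5 CPM in LN229. The light chain B2M (863 and 1916 CPM), the class I transactivator NLRC5 (15.3 and 39.6 CPM) and the stress ligand MICA (16.7 and 75.4 CPM) were also called higher in U251. All 27 tested members of the antigen processing list together gave 12 calls in LN229 and 7 in U251. The transporters TAP1 and TAP2 were not called. Of 39 interferon-stimulated genes, 9 were called higher in LN229, among them OAS3 (89.3 and 29.1 CPM) and BST2 (12. and 0.803 CPM), and 4 higher in U251; the list's median log2 difference was 0.25.

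Class II promoters are known to carry a Y box, an inverted CCAAT element bound by NF-Y, downstream of the X box bound by RFX. Promoters of RefSeq (GRCh38.p14) were read for the 120 bases upstream of each start, and CCAAT was searched on both strands, so that either CCAAT or ATTGG counts. It was present in 12 of 14 promoters of class II genes in the table, against 20.4% of all 35116 promoters over the same window. The windows of 5 genes of the group are shown, with each match in capitals; a match is a description of letters and not a site.
HLA-DRB1 (chr6:32589849-32589968, minus strand): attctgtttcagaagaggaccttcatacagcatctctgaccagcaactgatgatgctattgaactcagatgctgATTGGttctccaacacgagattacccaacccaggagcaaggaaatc
HLA-DQA1 (chr6:32637286-32637405, plus strand): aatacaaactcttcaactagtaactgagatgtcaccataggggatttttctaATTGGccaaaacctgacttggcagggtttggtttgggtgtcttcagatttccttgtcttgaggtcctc
HLA-DQB1 (chr6:32666658-32666777, minus strand): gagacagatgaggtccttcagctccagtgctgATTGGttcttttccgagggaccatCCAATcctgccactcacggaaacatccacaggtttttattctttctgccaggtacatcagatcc
HLA-DPB1 (chr6:33075870-33075989, plus strand): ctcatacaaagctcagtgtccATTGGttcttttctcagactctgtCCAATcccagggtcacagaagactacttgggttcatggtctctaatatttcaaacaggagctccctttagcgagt
CD74 (chr5:150412911-150413030, minus strand): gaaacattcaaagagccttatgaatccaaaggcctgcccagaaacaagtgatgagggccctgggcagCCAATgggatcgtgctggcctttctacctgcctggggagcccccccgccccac
HLA-DQB1 and HLA-DPB1, the genes with 2 matches, were at 104 and 196 CPM in LN229, below HLA-DRB1 (533 CPM) with 1 match, and all 3 had at most 1 read in the U251 controls. Neither HLA-DPA1 promoter in the table held a match in the window.

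**Figure D2:**
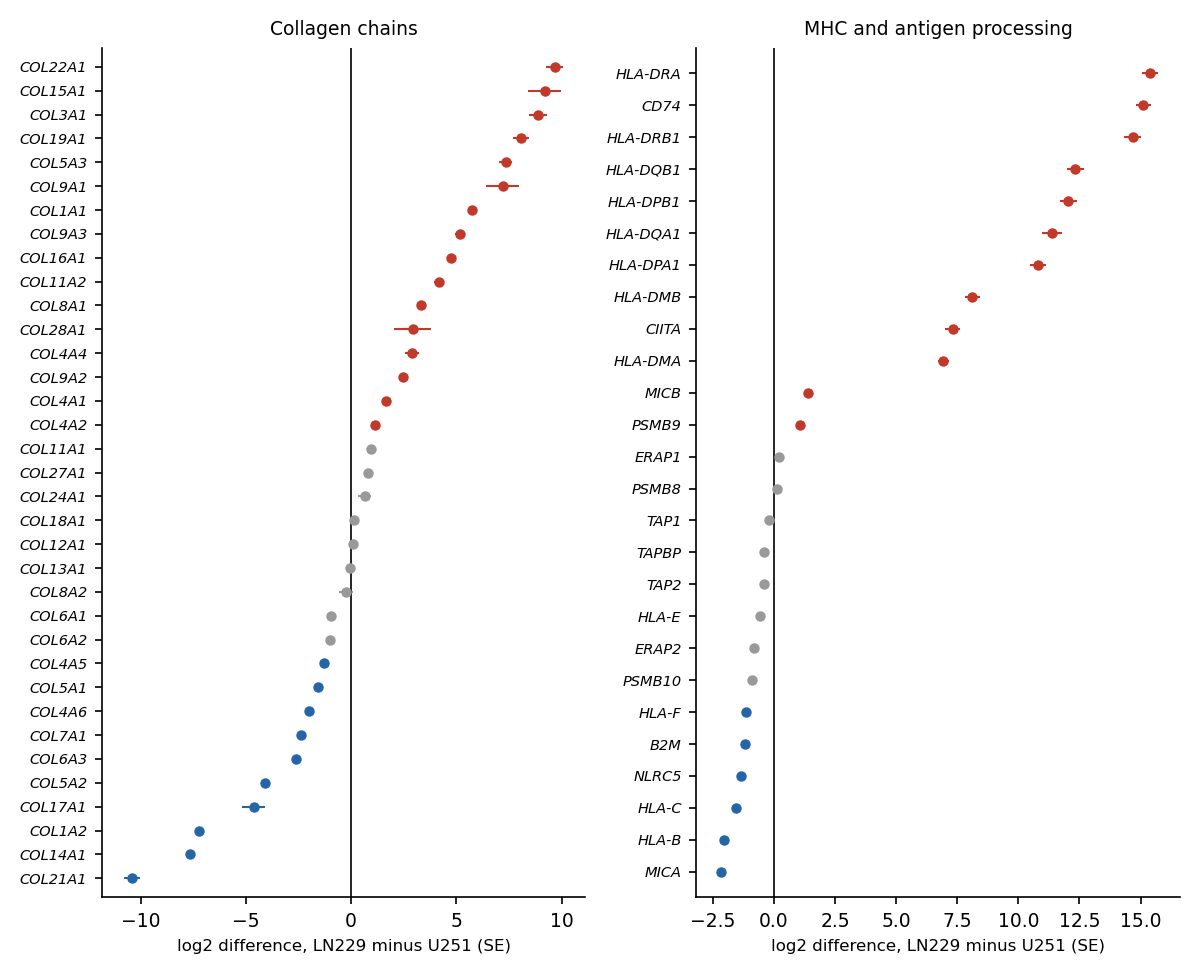
Fitted log2 difference, LN229 minus U251, with its SE, for 35 tested collagen chains (left) and 26 of the tested antigen presentation genes (right); red is called higher in LN229, blue higher in U251 and grey not called. Class II genes and CIITA lie at the top right, and HLA-B, HLA-C and HLA-F near the bottom; for genes with 0 reads in a line, such as HLA-DRA, the fitted size depends on the prior and is no measure of the fold.

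Receptor tyrosine kinases split between the lines. Of 26 tested, 5 were called higher in LN229 and 8 higher in U251, or 8 and 8 without the 2 libraries that stand apart. Beside ERBB3, LN229 was higher in FLT1, a receptor for VEGF (57.0, 53.0, 41.2 and 47.3 CPM against 1 read in U251), FGFR1 (109.6, 79.2, 83.9 and 84.2 CPM in LN229 and 8.79, 13.6, 8.92 and 11.3 CPM in U251) and FGFR4 (13.4 and 0.687 CPM). U251 was higher in PDGFRA, in EGFR (231, 293, 258 and 233 CPM, against 108, 103, 54.9 and 118 CPM in LN229), in MET, the receptor for hepatocyte growth factor (484, 561, 454 and 446 CPM in U251 and 99.4, 93.8, 61.5 and 99.7 CPM in LN229), and in NTRK3, the neurotrophin-3 receptor (60.2, 58.1, 67.7 and 52.1 CPM against 2 reads in LN229). EGFR and MET were lowest in LN229 control siRNA replicate 1, and all U251 libraries were above all LN229 libraries for both. KDR, the main endothelial VEGF receptor, was at 14.8 CPM in U251 and 0.565 CPM in LN229. AXL was not called, with overlapping values of 395 ± 23.7 CPM in LN229 and 432 ± 67.1 CPM in U251 (SD, n = 4 each), and ERBB2 was not called (93.1 and 77.0 CPM).

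Growth factors followed a similar division. Of 28 tested ligands, 6 were called higher in LN229 and 11 higher in U251. VEGFA stood at 719.7, 934, 716 and 819 CPM in U251 and 69.1, 71.7, 55.9 and 74.8 CPM in LN229 (log2 difference -3.55, SE 0.13). Of its receptors, KDR was higher in the same line and FLT1 in the other. PDGFA, a ligand of PDGFRA, was at 152, 156, 194 and 153 CPM in LN229 and 11.7, 10.98, 12.1 and 10.9 CPM in U251, opposite to PDGFRA. GDNF, a neurotrophic factor of glia, was at 83.0, 69.4, 76.5 and 65.9 CPM in LN229 against 3 reads in U251, and the heparin-binding factor MDK at 114 against 10.6 CPM. Of the neuregulins that bind ERBB3, NRG1 was at 34.4, 146, 38.7 and 36.5 CPM in U251 and 27.4, 18.5, 17.1 and 26.4 CPM in LN229, with U251 mock replicate 2 far above the rest. Its call toward U251 (log2 difference -1.38) was lost under 9 of the 20 alternatives, among them without that library (log2 difference -0.69), and NRG2 was not called. Among the 15 tested Eph receptors and ephrins, 6 were called higher in U251, with EPHA3 at 364, 382, 345 and 364 CPM in U251 and 67.5, 66.6, 40.9 and 57.3 CPM in LN229, and 1, EFNA5 (30.7 and 0.168 CPM), higher in LN229.

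Of 29 tested cytokines and cytokine receptors, 11 were called higher in U251 and 8 higher in LN229. IL18, an inflammasome-processed cytokine, was at 79.9, 84.1, 71.5 and 74.2 CPM in U251 against 2 reads in LN229. IL13RA2, a decoy receptor for interleukin 13 known as a glioblastoma surface antigen, was at 72.4, 70.5, 67.3 and 69.2 CPM in U251 and 0.160, 0.254, 0.202 and 0 CPM in LN229. CSF1, the macrophage growth factor, was at 394, 259, 425 and 423 CPM in U251 and 61.6, 63.8, 69.4 and 73.6 CPM in LN229. On the LN229 side stood the chemokine CCL2 (145, 135, 256 and 157 CPM, against 13.8, 8.56, 13.2 and 8.63 CPM in U251), LIF (180.1 and 25.5 CPM) and TNFRSF21 (81.8 and 9.86 CPM).

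Of 27 tested TGF-beta and BMP genes, 12 were called higher in LN229 and 6 higher in U251. BMP4 was at 33.1, 27.3, 33.3 and 28.8 CPM in LN229 and 0.764, 0.161, 0 and 0.528 CPM in U251, and BMP8B at 79.8, 78.9, 76.2 and 81.9 CPM in LN229 and 2.10, 1.45, 1.27 and 2.82 CPM in U251. The receptors TGFBR2 (143 and 39.2 CPM) and TGFBR3 (23.03 and 0.216 CPM) were higher in LN229, whereas the ligands TGFB2 (38.2 and 116 CPM) and TGFB3 (4.09 and 22.2 CPM) were higher in U251. TGFB1 was not called (85.0 and 81.2 CPM). Wnt pathway genes gave 6 calls in LN229 and 7 in U251 of 23 tested; WNT5A was at 156, 135, 114 and 137 CPM in LN229 and 33.1, 34.1, 28.5 and 24.8 CPM in U251, and the secreted inhibitor FRZB at 36.5, 23.4, 41.2 and 47.7 CPM in U251 with 0 reads in LN229. Notch genes gave 5 calls in each direction of 16 tested, with NOTCH2 at 652, 678, 668 and 657 CPM in U251 and 253, 253, 109.5 and 259.9 CPM in LN229, and NOTCH1 higher in LN229 (115 and 55.5 CPM).

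Receptors coupled to G proteins or gated by nucleotides gave 15 calls in LN229 and 9 in U251 of 36 tested. LPAR1, a receptor for the lysophosphatidic acid that ENPP2 makes, was at 29.3, 29.4, 26.6 and 23.6 CPM in LN229 with 0 reads in U251. CNR1, the cannabinoid receptor of neurons, was at 442, 250.2, 479 and 482 CPM in U251 and 3.68, 4.95, 3.23 and 2.19 CPM in LN229, and the tachykinin receptor TACR1 at 33.6, 23.7, 40.3 and 33.8 CPM in U251 with 0 reads in LN229. Glutamate receptors and transporters gave 5 and 4 calls of 13 tested, among them the kainate receptor GRIK2 in LN229 (30.2, 40.0, 25.8 and 35.9 CPM, against 0.764, 0.968, 0.478 and 1.23 CPM) and SLC1A3 in U251.

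The collagen program was broad in both lines and differed in its chains. Of 35 tested collagen genes, 16 were called higher in LN229 and 10 higher in U251 (median log2 difference 0.78, median absolute log2 difference 2.87). The chains of type I collagen, which assemble as COL1A1 and COL1A2 into a heterotrimer, went opposite ways. COL1A1 (chromosome 17, 50183289 to 50201632) stood at 406, 329, 280.4 and 284 CPM in LN229 and 5.92, 4.20, 7.16 and 6.87 CPM in U251 (log2 difference 5.76, SE 0.16). COL1A2 (chromosome 7, 94394561 to 94431232) stood at 16.2, 14.1, 9.68 and 12.5 CPM in LN229 and 1989.6, 1424, 2099 and 2267 CPM in U251 (log2 difference -7.22, SE 0.18). Per kilobase of exon, the mean level of COL1A1 was 33.1 and of COL1A2 1.17 CPM in LN229, and 0.615 and 174 CPM in U251, so the order of the 2 chains reversed between the lines. In the XRN2 siRNA libraries the log2 differences were 6.54 and -7.04.

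The type V chains were divided. COL5A3 was higher in LN229 (37.5 and 0.217 CPM), while COL5A2 and COL5A1 were higher in U251, with COL5A2 at 422, 383, 423 and 461 CPM in U251 and 24.3, 28.3, 18.2 and 28.0 CPM in LN229 and COL5A1 at 753, 677, 774 and 836 CPM in U251 and 229, 246, 199 and 347 CPM in LN229. COL3A1 was higher in LN229 (52.5, 45.05, 44.4 and 37.9 CPM in LN229, 0, 0, 0.159 and 0.705 CPM in U251). LN229 was also higher in COL8A1 (578 and 56.9 CPM), COL9A3, a cartilage collagen chain (469, 448, 573 and 425 CPM in LN229 and 15.1, 6.62, 13.7 and 19.2 CPM in U251), COL16A1 (129.7 and 4.87 CPM) and the basement membrane chains COL4A1 (189 and 59.0 CPM) and COL4A2 (504 and 229 CPM). COL21A1 was at 73.2, 47.5, 63.7 and 77.5 CPM in U251 against 1 read in LN229. The chains COL6A1 and COL6A2 were not called, while COL6A3 was higher in U251 (7.93 and 48.8 CPM).

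Laminin and basement membrane genes were mostly higher in LN229, 10 of 19 tested against 3 in U251. The perlecan gene HSPG2 was at 431, 358, 194 and 368 CPM in LN229 and 40.5, 36.3, 41.6 and 52.1 CPM in U251, nidogen 1 (NID1) at 591 and 214 CPM, and FREM2, a protein of the epidermal basement membrane, at 185, 194, 80.5 and 244 CPM in LN229 and 3.63, 2.10, 3.18 and 3.17 CPM in U251. LAMA5, a laminin chain of mature basement membranes, was higher in U251 (148, 135, 161 and 189 CPM, against 24.96, 25.6, 16.9 and 31.2 CPM). Among 27 tested proteoglycan and hyaluronan genes, 12 were higher in LN229, with biglycan (BGN) at 128, 109.9, 107 and 96.3 CPM in LN229 and 3.44, 2.26, 1.75 and 2.99 CPM in U251, and 5 higher in U251, among them the hyaluronan synthase HAS2 (7.01 and 54.5 CPM), its receptor CD44 and the glypican GPC4 (2.47 and 122 CPM).

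Matrix glycoproteins gave 13 calls in LN229 and 11 in U251 of 37 tested. Fibronectin (FN1) was at 3999, 3460.5, 1865 and 3391 CPM in LN229 and 602, 579, 639.8 and 609.6 CPM in U251, and the elastin-associated EMILIN1 at 306, 306, 352 and 295 CPM in LN229 and 0.573, 0.484, 0.478 and 1.23 CPM in U251. FN1 was lowest in LN229 control siRNA replicate 1, which was still above every U251 library. U251 was higher in IGFBP2 (519, 418, 499 and 640.1 CPM, against 43.8, 48.2, 80.1 and 39.6 CPM), MATN2 (17.4 and 267 CPM) and the YAP target CTGF (157 and 699 CPM). SPARC (1909.9 and 2658 CPM), a collagen-binding protein, was abundant in both lines and not called.

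Of 37 tested proteases, inhibitors and crosslinkers of matrix, 19 were called higher in LN229 and 12 higher in U251. MMP2, gelatinase A, was at 1815, 2238, 2352 and 2247 CPM in LN229 and 148, 142, 141 and 151 CPM in U251 (log2 difference 3.89, SE 0.11), and the membrane protease MMP16 at 223, 189.8, 134 and 201 CPM in LN229 and 9.94, 6.78, 10.5 and 7.93 CPM in U251. SERPINE2, an inhibitor of thrombin and urokinase, was at 1635 and 204 CPM. PLAU, the urokinase, stood at 316, 822, 348 and 312 CPM in U251 and 0.640, 0.381, 0.605 and 1.18 CPM in LN229, with the highest value in U251 mock replicate 2. The crosslinking oxidases were divided: LOXL3 was higher in LN229 (411 and 62.8 CPM) and LOXL4 in U251 (63.1, 67.1, 60.8 and 66.6 CPM against 2 reads in LN229). The lysyl hydroxylase PLOD1 was higher in U251 (221 and 912 CPM) and PLOD3 in LN229 (592 and 239.5 CPM).

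Integrins gave 5 calls in each direction of 19 tested. ITGB4, the partner of integrin alpha 6 in hemidesmosomes, stood at 588, 463, 574 and 657 CPM in U251 and 10.4, 9.64, 10.1 and 10.4 CPM in LN229 (log2 difference -5.81, SE 0.15), whereas ITGA6 itself was higher in LN229 (322, 315, 248 and 327 CPM, against 87.3, 61.8, 75.9 and 73.4 CPM). ITGA7, a laminin receptor of muscle, was higher in U251 (6.78 and 135 CPM), and ITGA1, a collagen receptor, in LN229 (66.7 and 5.87 CPM). ITGB1 was not called (1129.5 and 1171 CPM).

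Glucose metabolism separated the lines. Of 33 tested genes of glucose uptake and glycolysis, 17 were called higher in U251 and 5 higher in LN229 (median log2 difference -1.50). PGK1 stood at 2748, 1897, 2652 and 2946 CPM in U251 and 374, 392.1, 446 and 411 CPM in LN229, and ENO1 at 5761, 3998, 5879 and 6553 CPM in U251 and 1495, 1449.8, 1989 and 1587 CPM in LN229. The lactate exporter SLC16A3 (509, 299, 489.9 and 582 CPM, against 40.2, 42.5, 46.8 and 42.8 CPM in LN229), the pyruvate dehydrogenase kinase PDK1 (13.6 and 96.2 CPM), the glucose transporter SLC2A1 (149.6 and 436 CPM), GPI (219 and 799 CPM) and PFKP (145 and 474 CPM) had the same direction. U251 mock replicate 2 was the lowest U251 library for PGK1, ENO1 and SLC16A3, and still above every LN229 library. LDHA, the lactate dehydrogenase subunit that turns pyruvate into lactate, was among the 5 genes higher in LN229, with ALDOC, ENO3, PFKFB2 and PDK4. It stood at 993, 899.6, 1134 and 880.0 CPM in LN229 and 20.6, 16.3, 21.2 and 22.02 CPM in U251 (chromosome 11, 18394388 to 18408425, log2 difference 5.61, SE 0.17), while its partner LDHB was not called (554 and 346 CPM). GAPDH was not called either (5743 ± 1169 and 5043 ± 762 CPM, SD, n = 4 each). CA9, a carbonic anhydrase, was at 379, 294, 377 and 486 CPM in U251 against 3 reads in LN229. The ratio was 3186 (95% exact counting interval 1089.7 to 15450.2). Like VEGFA, PGK1 and PDK1, CA9 is known as a target of hypoxia-inducible factors. LDHA and ALDOC, higher in LN229, are known targets as well, so known targets were called in both directions.

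Among the cores that hypoxia-inducible factors bind is ACGTG, and other forms such as GCGTG were not searched. The same 120 bases upstream were searched for ACGTG on both strands (ACGTG or CACGT; in the palindrome cacgtg both overlap), which 10.5% of all promoters hold. Of 31 promoters in the table for 16 glycolysis genes higher in U251, 5 held a match, and of 6 promoters for 4 such genes higher in LN229, 2 did, one of them of LDHA. The windows of 3 genes on the U251 side and of LDHA are shown with matches in capitals. For PDK1, SLC16A3 and LDHA the start shown was picked for its match, and every other listed start of these genes held 0 matches. Which start these cells use was not tested.
CA9 (chr9:35673808-35673927, plus strand): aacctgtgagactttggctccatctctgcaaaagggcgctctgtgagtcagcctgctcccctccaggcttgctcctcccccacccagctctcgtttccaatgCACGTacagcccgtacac
PDK1 second start (chr2:172555970-172556089, plus strand): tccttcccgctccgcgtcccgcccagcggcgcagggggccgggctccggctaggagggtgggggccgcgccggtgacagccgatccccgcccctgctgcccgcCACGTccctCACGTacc
SLC16A3 second start (chr17:82228922-82229041, plus strand): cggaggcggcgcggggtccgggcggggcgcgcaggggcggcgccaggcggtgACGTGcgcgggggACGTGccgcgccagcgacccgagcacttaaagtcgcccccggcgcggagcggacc
LDHA first start (chr11:18394443-18394562, plus strand): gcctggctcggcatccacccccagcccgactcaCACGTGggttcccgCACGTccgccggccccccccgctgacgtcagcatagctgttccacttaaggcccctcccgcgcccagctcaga
The motif was thus present in the LDHA window, although LDHA and the other 3 genes had opposite directions, and its letters were not in the window of PGK1.

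Genes of the citric acid cycle and of nuclear-encoded respiratory complexes differed little: of 43 tested, 1 was called higher in LN229 and 2 higher in U251, a share under the background, with a median absolute log2 difference of 0.43. Cholesterol synthesis and uptake was a further group on the LN229 side, with 13 of 26 tested called higher in LN229 and 2 higher in U251 (median log2 difference 0.97). MVD, a decarboxylase of the mevalonate pathway, was at 72.0, 82.4, 112 and 76.1 CPM in LN229 and 17.6, 27.6, 18.0 and 21.0 CPM in U251. FDPS (387 and 115 CPM) and HMGCS1 (233 and 78.3 CPM), enzymes of the same pathway, had the same direction, and SREBF2, which drives this program, differed by less than 2-fold (298 and 169 CPM). The genes higher in U251 were ABCA1, the cholesterol exporter (131, 178, 142 and 127 CPM, against 38.1, 35.8, 19.4 and 37.2 CPM), and TM7SF2. Serum is a source of cholesterol for cultured cells and was 5% for LN229 and 10% for U251; its part was not tested.

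**Figure D3:**
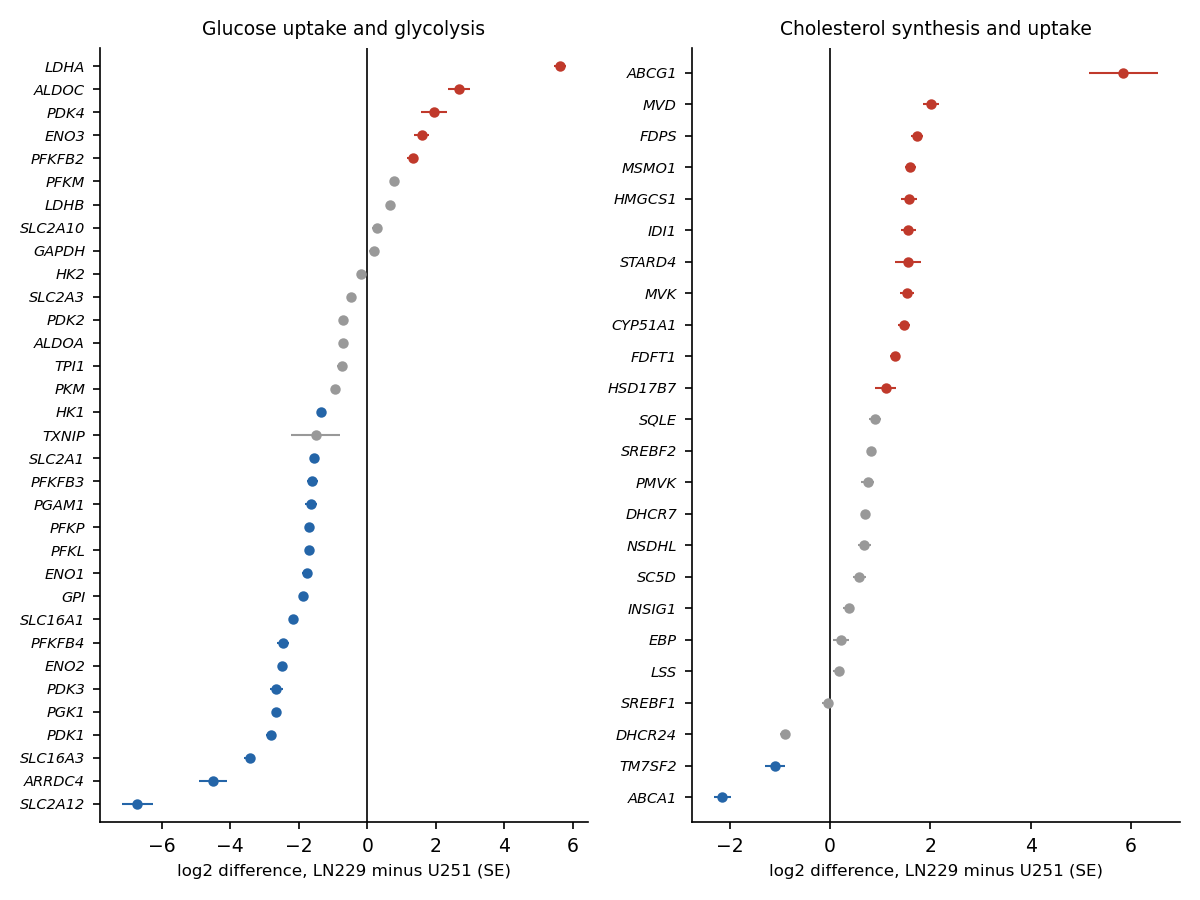
Fitted log2 difference, LN229 minus U251, with its SE, for 33 tested genes of glucose uptake and glycolysis (left) and 24 of those of cholesterol synthesis and uptake (right), colored by call as red for LN229, blue for U251 and grey for none. Most glycolysis genes lie left of 0 with LDHA at the far right, and most cholesterol genes lie right of 0 with ABCA1 at the far left.

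Fatty acid genes gave 11 calls in LN229 and 6 in U251 of 37 tested. Fatty acid synthase (FASN) was at 1407, 1425, 977 and 1362 CPM in LN229 and 417, 473, 441 and 457 CPM in U251, the acetyl-CoA synthetase ACSS2 at 114 and 29.5 CPM, the elongase ELOVL2 at 34.2 and 0.663 CPM, and PPARG, the regulator of fat cell genes, at 12.6, 17.0, 16.1 and 22.9 CPM with 0 reads in U251. ELOVL5 (210.5 and 638 CPM) and CPT1C (1.58 and 29.4 CPM) were higher in U251. The desaturase SCD was not called (1330.2 and 1488 CPM). Of 23 tested genes of serine, glycine and folate metabolism, 4 were higher in LN229 and 2 in U251, and 5 and 1 without the libraries that stand apart; PSPH lost its call there.

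In other amino acid metabolism 12 of 34 tested genes were called higher in U251 and 3 higher in LN229, or 12 and 7 without the 2 libraries that stand apart. The brain creatine kinase CKB was at 194, 145, 189.6 and 217 CPM in U251 and 19.5, 16.1, 20.6 and 15.7 CPM in LN229, and SAT1, the polyamine acetyltransferase, at 241, 259, 217 and 257 CPM in U251 and 34.2, 33.6, 42.2 and 26.9 CPM in LN229. Glutathione and NRF2 target genes gave 11 calls in U251 and 6 in LN229 of 37 tested. GSTM1, a glutathione transferase that many people lack through a common deletion, was at 30.6, 30.2, 28.2 and 33.6 CPM in U251 against 3 reads in LN229, and MGST1 at 12.7 and 176 CPM, while the quinone reductase NQO1 (961, 1067, 1294 and 1058 CPM in LN229, 411, 389, 397 and 389.6 CPM in U251) and malic enzyme ME1 (30.4 and 0.427 CPM) were higher in LN229. Reads of GSTM1 and its paralogs may be shared. Genes of NAD and nucleotide salvage gave 7 calls in LN229 and 6 in U251 of 27 tested, with NNMT, which methylates nicotinamide, at 83.4 CPM in U251 and 13.1 CPM in LN229.

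Retinoid metabolism gave 7 and 6 calls of 22 tested. ALDH1A3, which makes retinoic acid, was at 867, 733, 643 and 696 CPM in LN229 and 76.6, 154, 69.9 and 69.2 CPM in U251, and STRA6, the vitamin A importer, at 115, 104, 92.6 and 92.3 CPM in LN229 and 12.2, 13.1, 13.9 and 13.7 CPM in U251. The receptor RARG (95.3 and 15.7 CPM) was also higher in LN229, while RARA (32.1 and 66.0 CPM) and the retinol dehydrogenase RDH10 (18.1 and 76.5 CPM) were higher in U251.

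Mitosis genes, a reading of proliferation, differed little: of 30 tested, 3 were called higher in LN229 (UBE2C, BIRC5 and TPX2) and 0 higher in U251, and MKI67 was at 607 ± 184 and 553 ± 93.0 CPM (SD, n = 4 each). The counts of the unfolded protein and ATF4 list moved with the libraries that stand apart. With all 8 libraries 8 of 26 genes were called higher in U251 and 1 higher in LN229. The counts were 5 and 6 without U251 mock replicate 2, 4 and 0 without LN229 control siRNA replicate 1, and 5 and 5 without both. HERPUD1 stood at 100.1, 1864, 88.2 and 88.1 CPM in U251 and 35.0, 36.2, 37.1 and 36.4 CPM in LN229, so the 3 other U251 libraries were above LN229 as well, whereas DDIT3, at 15.1, 404, 13.2 and 15.3 CPM in U251 and 27.2, 28.7, 44.2 and 35.7 CPM in LN229, was higher in LN229 than in those 3.

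**Figure D4:**
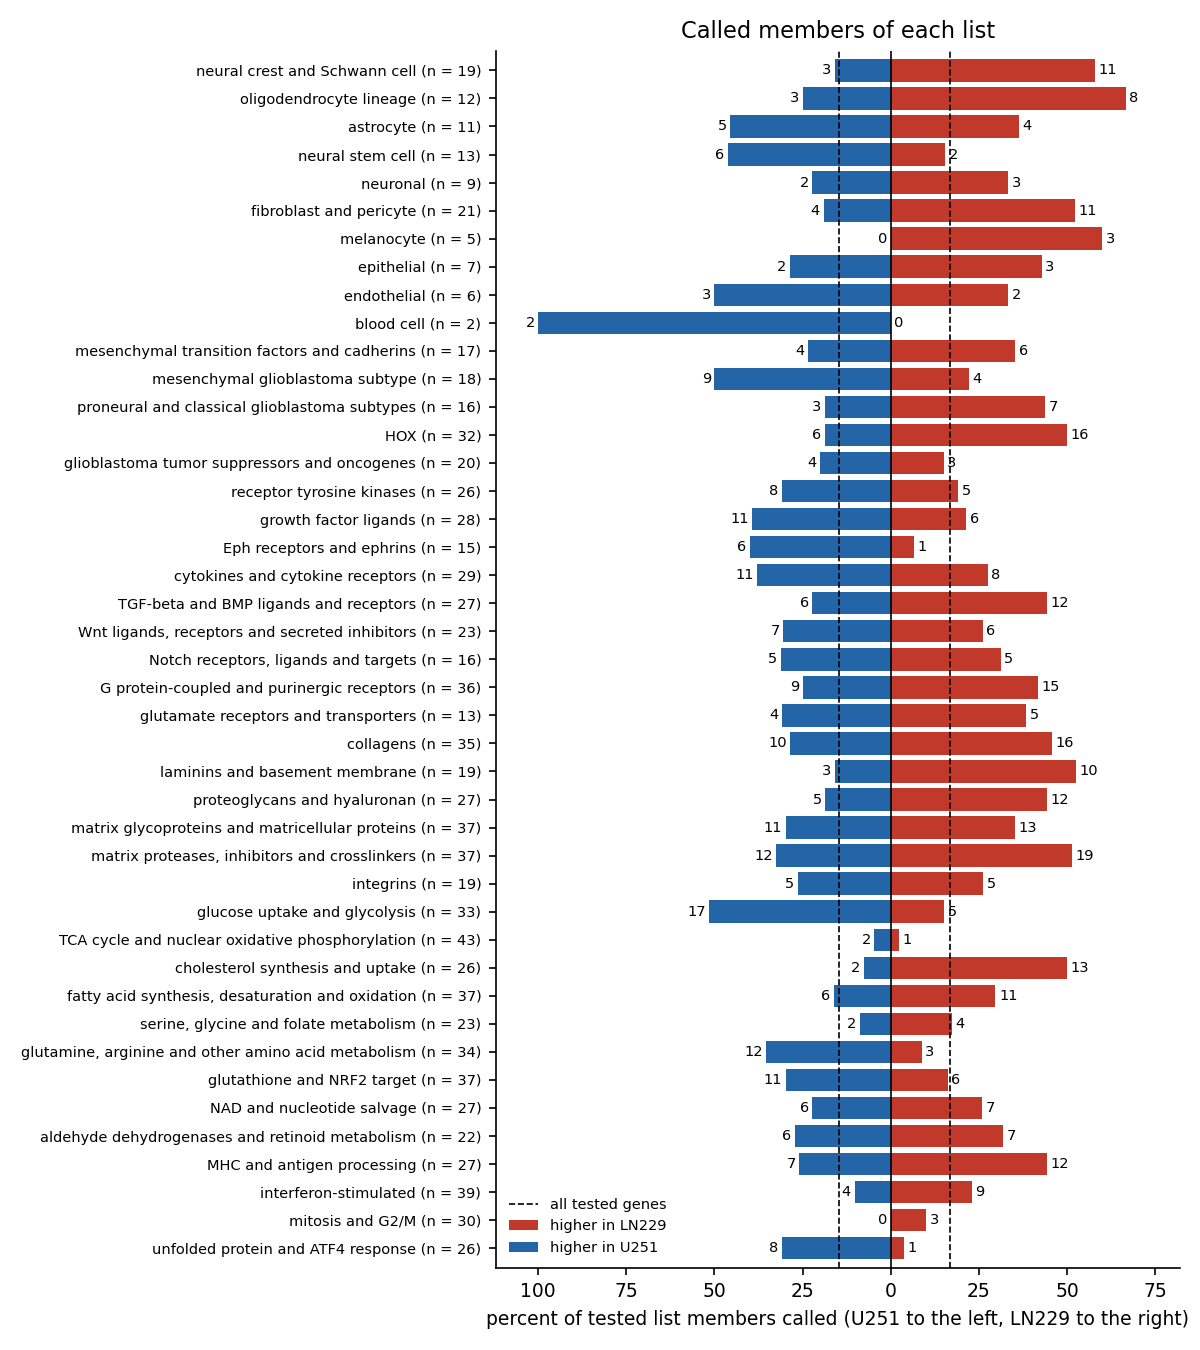
Share of the tested members of each of the 43 lists that was called higher in LN229 (red, right) or in U251 (blue, left), with the number of genes at the end of each bar and the number tested in the label; dashed lines give the shares over all tested genes, 16.9% and 14.7%. Among lists with 10 or more tested genes, the oligodendrocyte, neural crest and laminin lists reach furthest right and the glycolysis list furthest left; lists overlap in 65 genes.

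Genes restricted to 1 line were counted as those with at most 3 reads in each control library of 1 line and a mean of at least 20 CPM in the other. There were 95 on the LN229 side, 93 of them protein coding and 37 with 0 reads in all U251 controls, and 62 on the U251 side, 60 protein coding and 24 with 0 reads in LN229. The share of genes called was 30.0% for protein-coding genes, 57.6% for 340 long intergenic noncoding RNAs and 45.8% for 408 antisense genes. A gene of low level could pass the filter through the line where it was high alone, which raises the share called. The part of this in the higher noncoding shares was not tested. The TruSeq RNA v2 kit keeps no strand, so antisense reads and those of overlapping genes cannot be told apart. Among the called genes with the smallest p, EXTL1, a heparan sulfate glycosyltransferase, stood at 288, 295, 284 and 262 CPM in LN229 and 2.68, 2.10, 2.07 and 2.11 CPM in U251. LAYN, a hyaluronan receptor, stood at 199, 208, 210.0 and 202 CPM in U251 and 0.80, 0.381, 2.22 and 1.68 CPM in LN229.

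Differences also clustered along chromosomes. Medians over all tested genes of a chromosome were highest on chromosome 22 (0.86 on the log2 scale), 12 (0.56), 20 (0.46) and 16 (0.41) and lowest on X (-0.43), 6 (-0.42) and 17 (-0.34). Among 13517 windows of 31 neighbouring tested genes, the highest median (3.39) was at chr5:140537340-141249365, from SRA1 to PCDHB15, where 20 genes were called higher in LN229 and 0 higher in U251. Next were chrX:149596556-153509554, which holds MAGEA genes (median 2.46), and chr6:32128707-33192499, which holds the class II genes (median 1.39). The lowest was chr11:108505431-114400511, with a median of -2.14, 29 of 31 genes called higher in U251 and 0 above 0. In the windows with high medians, genes near 0 in U251, such as PCDHB5, MAGEA1 and HLA-DRA, could pass the filter through LN229 libraries alone. The medians and counts of these windows are therefore descriptions.

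The low windows of chromosome 11 formed the longest run in the genome, 76 consecutive windows with a median under -1 between 90131515 and 118572970, from NAALAD2 to IFT46. It held 106 tested genes, of which 73 (68.9%) were called higher in U251 and 3 higher in LN229, while on the rest of the chromosome 82 of 655 (12.5%) were higher in U251. The median log2 difference inside was -1.67, and -1.66 in mock, -1.69 in control siRNA and -1.74 in XRN2 siRNA libraries. IL18, LAYN and the complex II subunit SDHD, listed in the files as SDHD_1 (92.9, 77.3, 78.2 and 83.8 CPM in U251, 21.9, 21.3, 25.01 and 25.1 CPM in LN229), lie in this run, as do MMP7 (0.0904 and 21.7 CPM), the dopamine receptor DRD2 (2.45 and 96.7 CPM) and the small heat shock protein CRYAB (7.95 and 172 CPM). A run chosen for its low values is a description, and DNA copy number was not measured here.

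**Figure D5:**
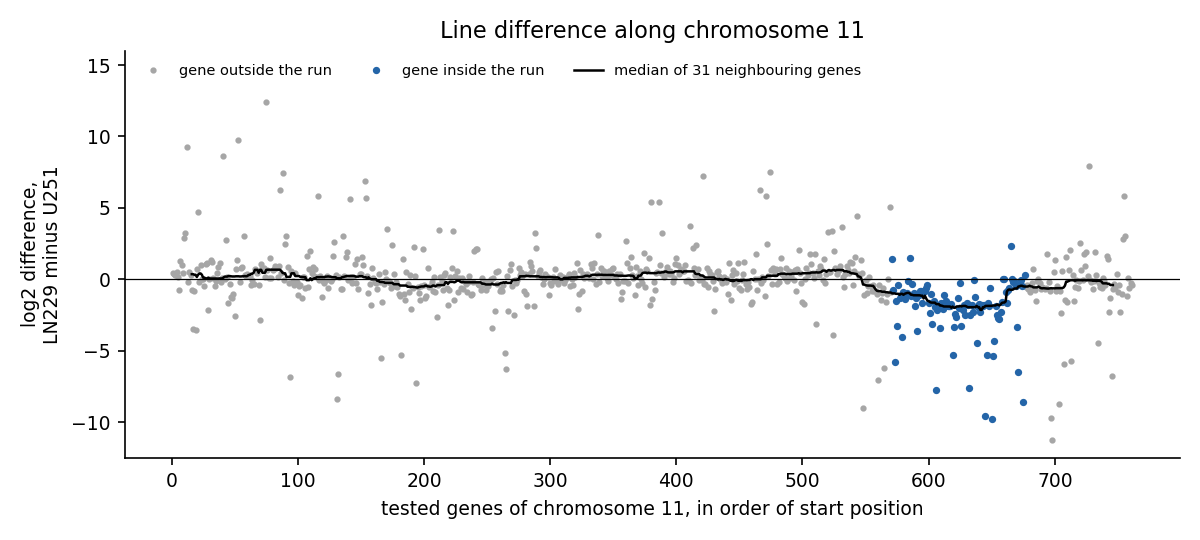
Fitted log2 difference, LN229 minus U251, of the 761 tested genes of chromosome 11 in order of start position; blue points are the 106 genes inside the run of low windows, grey points the 655 others, and the black line is the median of 31 neighbouring genes. The median line runs below -1 in the windows that define the run.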

How the data were processed

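Total exon read counts per gene, as deposited by the authors (per the file headers), were used for all 12 libraries. RNA was extracted with miRNeasy and sequenced from TruSeq RNA v2 libraries on a MiSeq, per the labels' protocols; no aligner or counter is named in the sources used here. The submitters' processing notes name hg19, but gene coordinates in the files matched GENCODE 29 on GRCh38 for 56000 of 57836 genes (96.8%), so coordinates are given as GRCh38. Control libraries held 4846768 to 7469052 reads; intervals and floors (3 counts) cover counting error only.

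Counts were fitted with edgeR 4.0.16 (TMM, filterByExpr, robust quasi-likelihood) with 1 mean per group over all 12 libraries, and p-values were adjusted over all 14232 genes. The script was tested on simulated data. Named genes were the 4 markers, the 10 with the smallest p among calls of at least 8-fold in each direction, the 10 highest line-restricted genes per line and up to 3 called genes per list and direction; other members were named for their known role after their values were seen. Members and lists were chosen with earlier results of these data known. Alternatives were DESeq2, other scaling, filters, thresholds and read counts, left-out libraries, and a replicate block. Some list members, though counted, are not reported here by name or drawn.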

Additional observations from a re-analysis of the deposited data

Results flagged for a closer look

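Within each line, the highest or lowest of the 4 control libraries was set against the other 3 for every gene printed per library and for the summed CPM of each list. Of 271 values, 42 held a library farther from the rest than Dixon's critical value for 4 samples allows. Chance gives about 1 in 20 for a single, normally spread value, and that rate is no yardstick for this count. The values share the same 8 libraries, and where 1 library held the only reads of a gene it was past the critical value in any case. LN229 control siRNA replicate 1 accounted for 18 and U251 mock replicate 2 for 16, and no cause was tested.

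LN229 control siRNA replicate 1 was the low library for ABCA1 (19.4 CPM), CIITA (66.8 CPM), FASN (977 CPM), ITGA6 (248 CPM), MET (61.5 CPM) and NOTCH2 (109.5 CPM). It was the high one for HLA-DRA (1073 CPM), HLA-DRB1 (723 CPM), PDGFA (194 CPM) and S100B (569 CPM), and for COL21A1 it held the only LN229 read (0.202 CPM). Its summed CPM was low for the Notch list (392.1) and the collagens (5172). It was high for the astrocyte (980.2), neural stem cell (5898), glycolysis (19993), citric acid cycle and oxidative phosphorylation (6902) and MHC (8245) lists.

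U251 mock replicate 2 was high for ALDH1A3 (154 CPM), DDIT3 (404 CPM), HERPUD1 (1864 CPM), HSPA5 (19522 CPM), NRG1 (145.92 CPM) and PLAU (822 CPM), and held the only U251 read of CD74, FLT1 and OLIG2 (0.161 CPM each). Its summed CPM was high for the unfolded protein and ATF4 list (45238, against 9597 to 10270.4 in the other U251 controls), the Notch list (1544), glutamate receptors and transporters (1054), matrix proteases (7559.8), serine and folate metabolism (2989) and other amino acid metabolism (5941). It was low for the citric acid cycle and oxidative phosphorylation list (4443).

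The other libraries were flagged on few values. LN229 mock replicate 1 held the only LN229 reads of CA9 (0.480 CPM) and was high for FGFR1 (109.6 CPM), and LN229 mock replicate 2 was low for SOX9 (1.78 CPM). U251 mock replicate 1 was high for EXTL1 (2.68 CPM) and at 0 for GDNF and HOXA10, where the other U251 libraries held 1 read each. U251 control siRNA replicate 1 held the SOX10 read (0.159 CPM), and U251 control siRNA replicate 2 was high for EMILIN1 (1.23 CPM).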

How the results depend on the processing

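The count of genes called between the lines (4488) kept within 1.5 times under all 20 alternatives, from 3522 (at least 5 CPM) to 5251 (no filter), and leaving out each library gave 4556 to 4718; where that left 1 library in a group, it was assumed to vary like the others. The count for the mock difference minus the control siRNA difference was 0 in the main design and 162 without the filter, and leaving out each library gave 0 to 696: 696 without LN229 control siRNA replicate 2, 185 without U251 mock replicate 1 and 0 otherwise. In each of those fits the library that stood apart was the only one left in its group; the cause was not tested. Deviations of same-numbered libraries correlated at -0.055 to 0.0657, so no pairing by replicate number was seen. With 2 libraries per group and 1 library standing apart in each line, this cannot exclude pairing. With the replicate block 4469 genes were called (2391 higher in LN229, 2078 in U251), 4455 of the 4488 among them, and the interaction count was 0. Of 295 genes that the text or its naming rule covers and that were called, 272 kept the call in every alternative in which they were tested, 23 lost it in at least 1 and 0 reversed. Among those lost were HSPA5 and TYRP1 (13 alternatives each), PSPH (10), NRG1 (9), VIM and RARA (5 each), NOTCH1, TM7SF2 and QKI (4 each) and HERPUD1, CSF1R and BIRC5 (2 each). Genes not called in the main design changed sign as follows, on the log2 scale. MKI67 was at -0.14 in control siRNA alone and between -0.21 and 0.34 as each library was left out. DDIT3 was at 1.48 in control siRNA alone, 1.09 without both libraries that stand apart and between -1.19 and 1.18 as each was left out (1.18 without U251 mock replicate 2). ITGB1 was at 0.12 without TMM, 0.00646 without both and between -0.165 and 0.0218 in turn. TGFB1 was at -0.11 without both and between -0.0686 and 0.229 in turn. SCD was at 0.0049 without TMM, AXL at 0.0387 without TMM and 0.0185 without both, and GAPDH at -0.0712 without both. Leaving out both libraries was chosen after seeing the data. With it 7 list medians changed sign: receptor tyrosine kinases (-0.33 to 0.02), MHC (0.14 to -0.10), serine and folate (-0.06 to 0.41), growth factor ligands (-0.15 to 0.06), fatty acid (0.05 to -0.06), NAD and nucleotide salvage (0.06 to -0.11) and retinoid genes (-0.05 to 0.03). Depth limits genes under about 1 CPM, which hold few reads in these libraries.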

Other observations

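Further gene groups were put together after their values were seen, so their counts are descriptions. Over all tested genes 16.9% were called higher in LN229 and 14.7% higher in U251. Of 20 known targets of hypoxia-inducible factors, 13 were called higher in U251 and 1, ANGPTL4, higher in LN229 (median log2 difference -1.94). The group left out known targets among the glycolysis genes. Of these, PGK1 and PDK1 were higher in U251, and LDHA (log2 difference 5.61) and ALDOC higher in LN229. BNIP3, a mitophagy receptor, was at a mean of 38.1 CPM in LN229 and 578 CPM in U251, NDRG1 at 82.2 and 816 CPM, the prolyl hydroxylase P4HA1 of collagen at 66.8 and 389.5 CPM, and the adenylate kinase AK4 at 32.8 and 308 CPM. MXI1 (35.3 and 35.2 CPM) and EGLN1 (74.7 and 147 CPM) were not called. The oxygen level of the cultures was not measured in these files.

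Cancer-testis antigens, which are normally active in germ cells, were expressed on the LN229 side: of 29 genes 14 were tested, and 13 were called higher in LN229 and 0 higher in U251. Members at or near 0 in U251, such as MAGEA1 here and PCDHB5 below, passed the filter through LN229 libraries alone. For such genes being tested nearly settled the direction of the call, so the counts of both groups are no independent support. MAGEA3 was at 125 and 1.02 CPM, MAGEA6 at 128.0 and 1.23 CPM, and MAGEA1 at 43.2 CPM with 0 reads in U251. These MAGEA genes are close paralogs that may share reads. Of 53 clustered protocadherins, cell surface proteins of neurons encoded in tandem on chromosome 5, 31 were tested, with 28 called higher in LN229 and 1 higher in U251 (median log2 difference 3.04). PCDHB5 was at 44.8 and 0.0440 CPM and PCDHB8 at 55.6 and 0.570 CPM, while PCDHB14 was not called (26.6 and 18.3 CPM). Imprinted genes went both ways, with 4 of 14 tested called on each side: H19 (66.6 and 0.136 CPM), PEG3 (60.2 and 0.304 CPM), PHLDA2 and ZIM2 were higher in LN229, and DIRAS3, PLAGL1, MEST and MEG3 higher in U251.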
